A study of Mus musculus with 5 samples.

Results

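The genes described here encode the BCL2 family, caspases and their adaptors, caspase inhibitors and growth arrest regulators, and they were compared between sorted mouse brain dendritic cells (DCs) and bone marrow monocytes. The set comprises 38 named genes, and a gene was measured when at least 1 probe set of the array carried its symbol and no other. Of the 38, 34 had a value, out of 18193 genes measured in all. Bax, Trp53 and Ripk1 were not named in the probe annotation used, and Bnip3l lay on probe sets with several symbols, so these 4 were not analysed here. By role, 9 of 9 anti-death, 18 of 20 pro-death and 7 of 9 dual-role genes were measured, the last being genes known to act on either side or on growth arrest.

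Cells die by apoptosis when caspases, a family of proteases, are activated. In the mitochondrial route, BH3-only proteins neutralise the anti-death BCL2 proteins or activate the effectors, the effectors open the outer mitochondrial membrane, and released cytochrome c assembles APAF1 and caspase 9. In the death receptor route, adaptors such as FADD recruit caspase 8, which CFLAR holds in check, and RIPK kinases can turn the signal towards necroptosis, a lytic death. Dendritic cells are short-lived cells whose survival depends on BCL2 proteins, and monocytes leave the marrow to become macrophages or dendritic cells.

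Both groups came from female C57BL/6 mice aged 6 to 8 weeks, with 1 Affymetrix array per sample. The brain DC group held 2 arrays of Lin-CD45hiCD11c+ cells (lineage-negative, high CD45, CD11c on the surface) from mice that had been given a subcutaneous graft of B16-Flt3L, a melanoma line that secretes the dendritic cell growth factor Flt3 ligand, 12 days before the organs were taken. The monocyte group held 3 arrays of SSCloCD11bhi CD115+ cells (low side scatter, high CD11b, CD115 on the surface), for which the labels give no tumour and no treatment. Cell type, tissue and tumour therefore differ together, and their effects cannot be told apart. Nothing in the labels states that each sample was a different animal; the p-values therefore describe array-to-array spread alone, which may be technical.

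Values are on the log2 RMA scale and centred within each probe set; a value near 0 is near the baseline of that probe set and no level can be compared between genes. A gene's value is the mean of its probe sets. Each difference subtracts the monocyte mean from the brain DC mean and carries the SE of a limma model fitted over all 18193 genes (n = 2 and 3 arrays), and a gene was called at a Benjamini-Hochberg adjusted p under 0.05. With so few arrays, the smallest p of a two-sided exact permutation test is 0.1. In sorted bulk samples, fewer cells of a type and less RNA per cell cannot be told apart.

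The cell labels held against marker genes: all 8 measured genes of conventional dendritic cells were higher in brain DCs, and all 6 measured monocyte genes were lower. The lists include genes of the sort gates themselves, Itgax (CD11c, 5.02), Itgam (CD11b, -2.28) and Csf1r (CD115, -1.40). The sort favoured the direction of these genes, so only the remaining genes are a separate check of the labels. Other lists held called genes too, beside 33.8% of all genes called, 16.9% in each direction. Of 8 measured microglia genes 7 were higher and 0 lower in brain DCs, with a list mean of 1.36 to 1.55 on those arrays and -0.76 to -0.54 on the monocyte arrays, and of 9 measured proliferation genes 5 were lower and 1 higher. Of 10 neutrophil and precursor genes 5 were lower and 1 higher. Lists of further cell types had called genes in 1 direction only, upward in the brain DC arrays, with 4 of 6 for plasmacytoid dendritic cells, 4 of 6 for endothelium, 2 of 7 for choroid plexus, 2 of 7 for natural killer and T cells, 1 of 4 for B cells and 1 of 3 for erythroid cells. The called shares of choroid plexus (28.6%), natural killer and T cells (28.6%), B cells (25.0%) and erythroid cells (33.3%) were not above the 33.8% of all genes. Nothing is read from the counts of these short lists. Siglech (1.78) was counted in both the microglia and the plasmacytoid dendritic cell list. The list means of plasmacytoid dendritic cells (0.58 to 0.66 against -0.96 to -0.84), natural killer and T cells (0.76 to 0.89 against -0.72 to -0.49), choroid plexus (1.02 to 1.14 against -0.38 to -0.24) and endothelium (0.31 to 0.51 against -0.52 to -0.38) did not overlap between the groups. The same held for neuron and glia genes (0.12 to 0.26 against -0.06 to 0.03). It also held for B cells (-0.22 to -0.14 against -0.60 to -0.34) and erythroid cells (0.06 to 0.16 against -0.31 to -0.16). The largest differences in these lists were those of Ttr, from the choroid plexus list (7.22), and Klrd1, from the natural killer and T cell list (6.29). Both list means rest mainly on such genes. The other choroid plexus genes differed by 0.22 to 0.67. Apart from Klrd1 and Gzma (2.75), the natural killer and T cell genes lay between -0.30 and 0.48 and were not called. None of 7 measured neuron and glia genes was called. None of 5 melanoma genes was called, and their list mean lay between -0.12 and -0.03 on all 5 arrays. Zero levels cannot be read on a centred scale. Control probe sets at the ends of Actb also separated the groups: the 3' value minus the 5' value was -0.16 and -0.31 on the brain DC arrays and 3.99, 3.98 and 1.60 on the monocyte arrays. The same measure for Gapdh was -0.34 and -0.22 against 2.78, 2.86 and 2.28, whereas the groups differed by only -0.21 for Pcx and -0.10 for Tfrc. Poly-A control transcripts, which are spiked in at labelling, were higher in brain DCs on all 24 of their probe sets, by a median of 2.59. The part of these measures in the results below was not tested.

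Brain DCs and monocytes differed in many of the death and survival genes, but no side of the balance moved as a block. The 34 measured genes split into 10 higher in brain DCs, 9 lower and 15 not called. That is 55.9% called, against 33.8% of all genes tested. Each direction took 16.9% of all genes. The set held 7 called genes with a difference of at least 2-fold, or 20.6%, against 13.5% of all genes. The groups did not overlap in 28 of the 34 genes, against 60.2% of all genes. They did not overlap in all 19 called ones either, but a call itself favours such separation. The median difference was 0.16 over the 34 genes and 0.09 over all genes, and the median absolute difference was 0.51 against 0.31. The genes were chosen with earlier results of these data known, so nothing is read from their excess over all genes. Among anti-death genes 2 were higher, 2 lower and 5 not called (median 0.24). Among pro-death genes 4 were higher, 5 lower and 9 not called (median 0.07), and among dual-role genes 4 were higher, 2 lower and 1 not called (median 0.44).

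**Figure D1:**
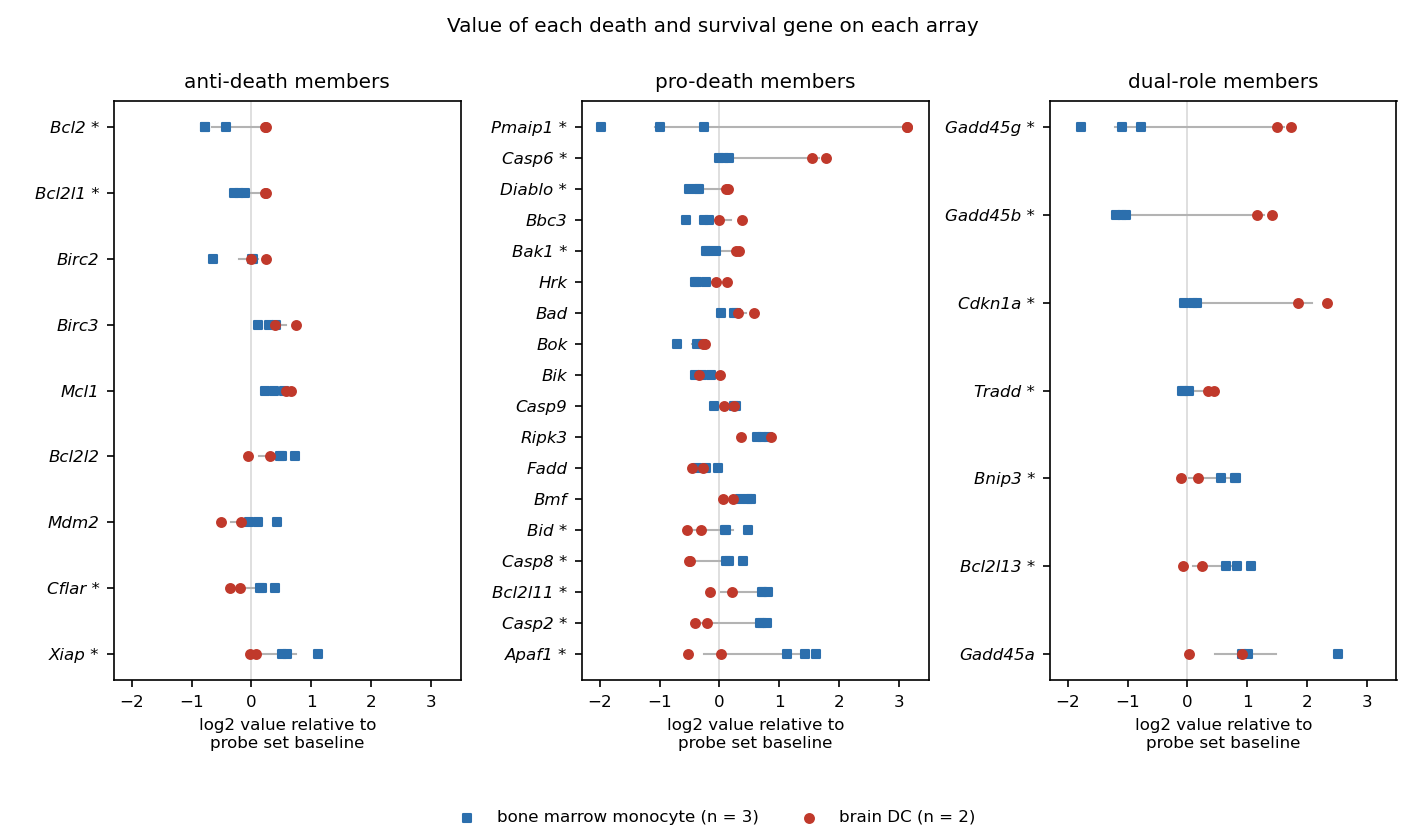
Each point is 1 array (red circles brain DC, blue squares bone marrow monocyte), plotted as its log2 value relative to the probe set baseline, for the 9 anti-death, 18 pro-death and 7 dual-role genes; grey lines join group means and an asterisk marks an adjusted p under 0.05. The widest separations are those of Pmaip1 (4.22), Gadd45g (2.83), Gadd45b (2.39) and Cdkn1a (2.02), where every brain DC array lies above every monocyte array.

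The anti-death BCL2 proteins bind and restrain the effectors and the BH3-only proteins, and the clearest change among them was in Bcl2 itself. Bcl2 read 0.22 and 0.24 on the brain DC arrays and -0.77, -0.43 and -0.78 on the monocyte arrays. Both brain DC arrays were above all monocyte arrays, a 1.86-fold rise (0.89 ± 0.15 SE, limma adjusted p = 0.00327), and its 5 probe sets all pointed up, from 0.62 to 1.08. Bcl2l1, which encodes BCL-XL, was higher by 0.44 ± 0.12 (limma adjusted p = 0.0291). That call did not survive leaving out any single array (0.40 to 0.49, limma adjusted p 0.0518 to 0.0955), setting the array medians equal (0.38, limma adjusted p = 0.0555) or other probe set rules (0.325 and 0.366).

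Mcl1 encodes the labile anti-death protein on which many myeloid cells rely, and it had the smallest difference of the anti-death genes. It read 0.58 and 0.67 in brain DCs against 0.54, 0.37 and 0.22 in monocytes, a difference of 0.24 (95% interval -0.09 to 0.57, limma adjusted p = 0.223). Its 6 probe sets ranged from -0.29 to 1.29, so this gene value depended on the probe set rule: the median of the probe sets gave -0.02, and the probe sets without a suffix gave 0.61 (limma adjusted p = 0.0201). Bcl2l2, which encodes BCL-W, read -0.05 and 0.31 against 0.72, 0.51 and 0.48. Its difference of -0.44 was not called (limma adjusted p = 0.0669), but 2 of its 4 probe sets were near -1.19 and -1.49 and the other two at 0.34 and 0.57. It passed the threshold without brain DC replicate 2 (-0.62, limma adjusted p = 0.0365), with array medians set equal (-0.51, limma adjusted p = 0.0404) and with probe sets without a suffix (-1.34, limma adjusted p = 9.23e-04).

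The inhibitors that act after or beside the mitochondria went down or stayed uncalled. XIAP binds active caspases directly. Xiap read 0.07 and -0.02 in brain DCs and 0.52, 0.60 and 1.11 in monocytes, with no overlap, and was 1.65-fold lower (-0.72 ± 0.19, limma adjusted p = 0.0245). Its 7 probe sets ran from -2.38 to 0.30, their median gave only -0.11 (limma adjusted p = 0.615), and leaving out brain DC replicate 1 (-0.77, limma adjusted p = 0.0714) or 2 (-0.67, limma adjusted p = 0.0959) ended the call. Cflar encodes cFLIP, the decoy that blocks caspase 8 at death receptors. It read -0.19 and -0.36 against 0.17, 0.39 and 0.15, again with no overlap (-0.52 ± 0.14, limma adjusted p = 0.0252). Of its 5 probe sets 3 lay between -1.70 and -0.84 and 2 at 0.29 and 0.81. The call ended on leaving out brain DC replicate 2 (-0.43, limma adjusted p = 0.108), monocyte replicate 1 (-0.55, limma adjusted p = 0.0547) or 2 (-0.44, limma adjusted p = 0.0698), and with the median of the probe sets (-0.50, limma adjusted p = 0.0585). Birc2 and Birc3, which encode the ubiquitin ligases cIAP1 and cIAP2, were at 0.32 and 0.30 with overlapping groups and were not called. Mdm2, the ligase that degrades p53, was at -0.51 and not called (limma adjusted p = 0.0652). It passed the threshold with array medians set equal (-0.57, limma adjusted p = 0.0465) and with quantile normalization (-0.54, limma adjusted p = 0.0449), while its 1 probe set without a suffix gave 0.19.

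**Figure D2:**
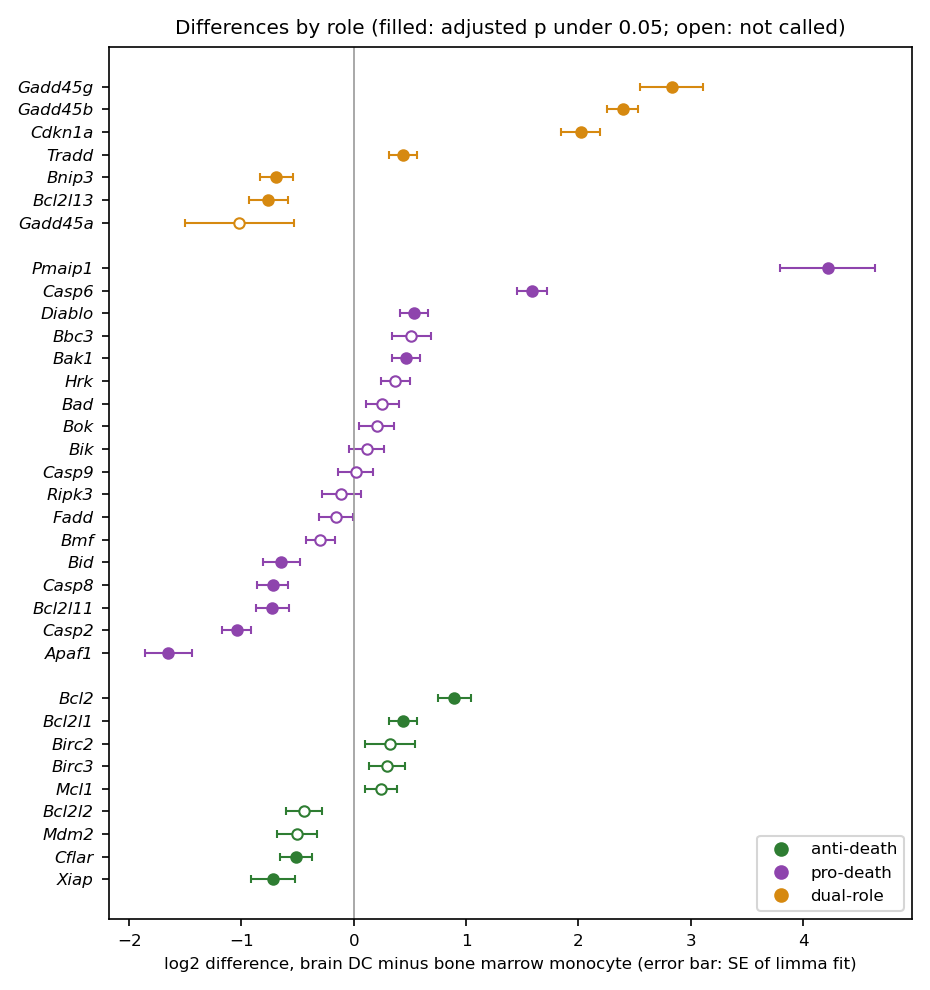
Points are log2 differences, brain DC minus bone marrow monocyte, and error bars are SEs from limma; genes are grouped by role, and filled points passed an adjusted p of 0.05. Pmaip1 (4.22) and Apaf1 (-1.65) mark the ends of the pro-death genes, while the anti-death genes stay between -0.72 and 0.89.

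BH3-only proteins are the sensors that start mitochondrial death, and 1 of the 8 measured, Pmaip1, stood far from the rest. Pmaip1 encodes NOXA, which binds MCL1 and is induced by p53 and by other stress signals. It read 3.14 and 3.15 on the brain DC arrays and -0.25, -0.996 and -1.97 on the monocyte arrays. Brain DC arrays agreed closely while monocyte arrays were spread widely (SD 0.86), and the brain DC level was 18.6 times the monocyte level (4.22 ± 0.43, limma adjusted p = 3.44e-04). It was measured by 1 probe set.

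Bcl2l11, which encodes BIM, a broad activator of death in leukocytes, changed the other way. It read -0.15 and 0.21 in brain DCs and 0.73, 0.82 and 0.71 in monocytes, with no overlap, and was 1.65-fold lower (-0.72 ± 0.15, limma adjusted p = 0.00782). Its 5 probe sets disagreed: tested singly, 3 were lower (from -1.90 to -0.81) and 1 was higher (0.77, limma adjusted p over probe sets = 0.0285). It was the only measured gene of the set called both ways by its probe sets, which happened in 3.37% of all genes with over 1 probe set. Bid, which links caspase 8 to the mitochondria, was 1.56-fold lower (-0.64 ± 0.17, limma adjusted p = 0.0215). That call ended on leaving out brain DC replicate 1 (-0.53, limma adjusted p = 0.111) or monocyte replicate 3 (-0.52, limma adjusted p = 0.0545), and with the median of the probe sets (-0.58, limma adjusted p = 0.0604).

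The other 5 BH3-only genes were not called. Bbc3, which encodes the p53 target PUMA, was at 0.51 (limma adjusted p = 0.0596) and passed the threshold without brain DC replicate 1 (0.70, limma adjusted p = 0.0434). Hrk was at 0.37, Bad at 0.26 and Bik at 0.11. Bmf, a sensor of lost anchorage, read 0.07 and 0.22 in brain DCs and 0.47, 0.34 and 0.52 in monocytes. Its mean of -0.30 joined probe sets at -1.31, 0.00 and 0.42, and its sign changed with the rule that combined them. Of the effectors, which open the mitochondrial membrane, Bak1 was higher by 0.47 ± 0.12 (limma adjusted p = 0.0235), and Bok was at 0.20 and not called. The Bak1 call was lost without either brain DC array or without monocyte replicate 1 or 2 (0.44 to 0.49, limma adjusted p from 0.0621 to 0.0782).

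Among the caspase genes and the scaffold of the apoptosome, the complex of APAF1 and caspase 9, Apaf1, Casp2 and Casp8 were lower, Casp6 was higher and Casp9 was not called. Apaf1, the scaffold of that complex, read -0.52 and 0.02 in brain DCs and 1.14, 1.62 and 1.44 in monocytes. No brain DC array reached a monocyte array, and Apaf1 was 3.14-fold lower (-1.65 ± 0.21, limma adjusted p = 9.50e-04), with both probe sets down (-1.82 and -1.48). Casp9, the initiator caspase that Apaf1 activates, read 0.07 and 0.24 against 0.27, 0.24 and -0.09, and its difference of 0.02 (95% interval -0.35 to 0.38) was the smallest of the set.

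Casp2, an initiator caspase that responds to genotoxic stress, read -0.21 and -0.41 in brain DCs and 0.69, 0.80 and 0.71 in monocytes. The arrays of a group lay close together, and Casp2 was 2.06-fold lower (-1.04 ± 0.13, limma adjusted p = 8.68e-04). Casp8, the initiator at death receptors, was 1.65-fold lower (-0.72 ± 0.14, limma adjusted p = 0.00581), at -0.50 and -0.49 against 0.40, 0.12 and 0.15. Casp6, an executioner caspase, rose instead: it read 1.78 and 1.55 on the brain DC arrays and 0.08, -0.01 and 0.17 on the monocyte arrays. It was 3.00-fold higher (1.59 ± 0.13, limma adjusted p = 1.59e-04), with both probe sets up (1.44 and 1.73). Diablo, which encodes SMAC, the mitochondrial protein that frees caspases from XIAP, read 0.15 and 0.11 against -0.38, -0.35 and -0.50 (0.54 ± 0.12, limma adjusted p = 0.0130). Its 2 probe sets were at 1.10 and -0.03, and leaving out brain DC replicate 1 ended the call (0.52, limma adjusted p = 0.0526).

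Among the adaptors and kinases of death receptors and necroptosis, only Tradd was called. Tradd, the adaptor of the TNF receptor, which can signal either survival or death, read 0.45 and 0.35 in brain DCs and 0.03, -0.08 and -0.06 in monocytes (0.44 ± 0.12, limma adjusted p = 0.0284). It had the smallest difference of the dual-role genes, and leaving out any single array ended its call (0.39 to 0.49, limma adjusted p 0.0535 to 0.109). Fadd was at -0.16 (95% interval -0.51 to 0.19) and the necroptosis kinase gene Ripk3 at -0.11 (95% interval -0.52 to 0.29), both with overlapping groups and not called. Of the BCL2-related receptors that mark mitochondria for removal, Bcl2l13 (-0.76 ± 0.17, limma adjusted p = 0.0122) and Bnip3 (-0.69 ± 0.15, limma adjusted p = 0.0103) were lower. Leaving out brain DC replicate 1 ended both calls (-0.60 and -0.55, limma adjusted p = 0.0723 and 0.0596), and the 2 probe sets of Bcl2l13 were at -1.45 and -0.07.

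The growth arrest genes held 3 of the 4 largest increases of the set. GADD45 proteins bind stress kinases and cell cycle proteins, and CDKN1A, or p21, inhibits cyclin-dependent kinases. Gadd45g read 1.73 and 1.499 on the brain DC arrays and -0.77, -1.09 and -1.78 on the monocyte arrays, a 7.10-fold rise (2.83 ± 0.28, limma adjusted p = 3.03e-04). Gadd45b read 1.16 and 1.42 against -1.19, -1.09 and -1.02, a 5.25-fold rise (2.39 ± 0.14, limma adjusted p = 2.80e-05). Each of its 3 probe sets rose, by 1.55 to 3.30. Cdkn1a read 1.84 and 2.34 against 0.17, 0.10 and -0.05, a 4.05-fold rise (2.02 ± 0.17, limma adjusted p = 1.63e-04). In all 3 genes every brain DC array lay above every monocyte array. Gadd45a did not follow its relatives. It read 0.91 and 0.02 in brain DCs and 0.91, 2.52 and 1.02 in monocytes, and the difference of -1.02 ± 0.49 was not called (limma adjusted p = 0.150), with monocyte replicate 2 far above the other arrays.

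Most genes of the immediate early and heat shock responses, induced by cell handling among other stimuli, were higher on the same arrays. Of 18 measured, 17 were called higher and 0 lower, where 16.9% of all genes were called higher. The list mean was 0.75 to 0.90 in brain DCs and -2.08 to -1.60 in monocytes. Fos went the other way and was not called (-0.38, limma adjusted p = 0.0898), with both brain DC arrays below all monocyte arrays. The part of these genes in the rise of the growth arrest genes and of Pmaip1 was not tested.

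The 3 growth arrest genes that rose together are shown with the 250 bases before their annotated starts (RefSeq, GRCm38.p6), with Cdkn1a at both of its starts, which lie 2790 bases apart. The windows lie at chr10:80929841-80930090 for Gadd45b, chr13:51846425-51846674 for Gadd45g, and chr17:29090729-29090978 and chr17:29093519-29093768 for Cdkn1a, all on the plus strand. Capitals mark matches, on either strand, to the TATA box (TATAAA), the GC box (GGGCGG), the CCAAT box (CCAAT), the cAMP response element (TGACGTCA) and its half-site TGACG, which lies within it, AP-1 (TGANTCA), the kappaB site or the p53 response element, taken as 2 half-sites of 10 bases with at most 13 bases between them.
Gadd45b: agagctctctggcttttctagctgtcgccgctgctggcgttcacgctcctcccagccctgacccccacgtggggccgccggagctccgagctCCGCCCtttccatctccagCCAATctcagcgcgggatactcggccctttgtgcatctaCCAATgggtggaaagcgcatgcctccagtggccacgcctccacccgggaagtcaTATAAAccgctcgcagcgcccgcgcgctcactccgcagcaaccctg
Gadd45g: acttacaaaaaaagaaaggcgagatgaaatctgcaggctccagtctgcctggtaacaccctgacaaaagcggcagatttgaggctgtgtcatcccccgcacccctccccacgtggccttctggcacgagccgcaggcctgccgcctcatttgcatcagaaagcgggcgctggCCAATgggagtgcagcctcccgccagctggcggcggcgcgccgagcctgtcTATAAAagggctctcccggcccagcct
Cdkn1a upstream start: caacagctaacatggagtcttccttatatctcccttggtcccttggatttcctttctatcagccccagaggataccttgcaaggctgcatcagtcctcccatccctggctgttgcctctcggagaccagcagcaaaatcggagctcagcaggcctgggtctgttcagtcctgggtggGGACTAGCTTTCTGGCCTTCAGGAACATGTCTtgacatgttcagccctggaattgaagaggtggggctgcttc
Cdkn1a downstream start: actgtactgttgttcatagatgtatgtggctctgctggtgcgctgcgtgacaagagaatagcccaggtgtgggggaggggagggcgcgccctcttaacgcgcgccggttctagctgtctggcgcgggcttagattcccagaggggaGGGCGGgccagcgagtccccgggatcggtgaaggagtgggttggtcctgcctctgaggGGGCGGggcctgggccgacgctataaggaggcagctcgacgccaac

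Gadd45b and Gadd45g both carried a TATA box, with its first base 46 and 27 bases before the start, and both carried CCAAT boxes, 2 in Gadd45b and 1 in Gadd45g. A TATA box was present in 4 of 43 windows of the set (31 of 34 genes matched) and in 12.4% of all 32851 windows. The upstream Cdkn1a window held a match to the p53 response element pattern, in a run of 32 bases from 73 to 42 bases before that start. It was the 1 window of the set with such a match, against 21 of all windows (0.0639%). The pattern allowed no mismatch, so half-sites that depart from it are not in capitals, and the marked run need not be the element in use. The downstream Cdkn1a window held 2 GC boxes. The GC box was found in 28 of 43 windows of the set (65.1%) and in 32.7% of all, beside a median GC content of 61.2% against 52.4%. The CCAAT box was found in 14 windows of the set (32.6%, against 33.8% of all), the kappaB site in 2 (4.65%, against 7.25%), the cAMP response element in 1 (2.33%, against 1.55%), its half-site in 9 (20.9%, against 17.8%) and AP-1 in 0 (against 6.75%). These matches describe letters in these windows only.

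The probe sets of a gene can read different stretches of its transcripts, and the share of genes whose probe sets differed in sign was no higher in this set than in all genes. Of 24 genes with over 1 probe set, 10 had probe sets on both sides of 0, or 41.7%, against 45.0% of all such genes. The median range between probe sets of a gene was 0.78 in the set and 0.60 in all genes. The called genes Xiap, Cflar, Bcl2l11 and Diablo had probe sets of both signs, whereas Bcl2, Apaf1, Casp6, Gadd45b and Cdkn1a had all of theirs on 1 side. The 3' and 5' control values given above differed between the groups on these same arrays, and whether they bear on the disagreement was not tested.

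**Figure D3:**
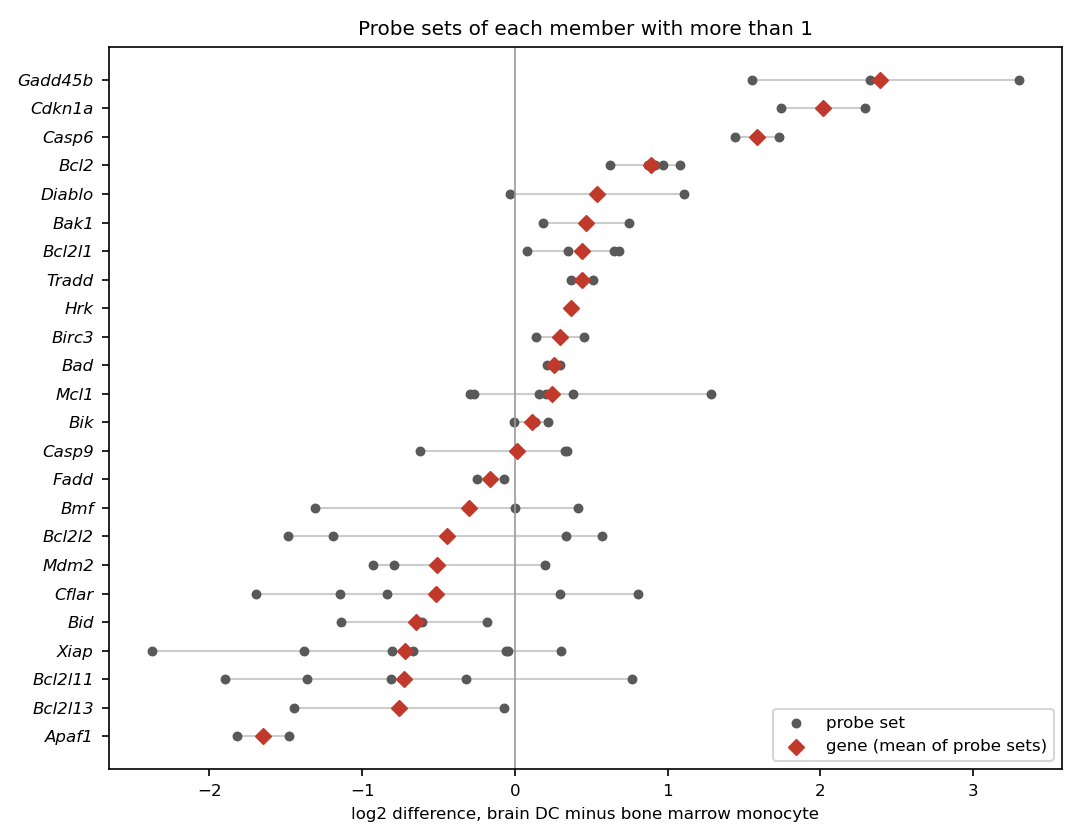
Grey points are the log2 differences, brain DC minus bone marrow monocyte, of single probe sets and red diamonds the gene means, for the 24 genes with over 1 probe set. Xiap spans -2.38 to 0.30 and Bcl2l11 spans -1.90 to 0.77, while the probe sets of Apaf1, Casp6 and Cdkn1a stay on 1 side of 0.

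Other genes of the death pathways, from a list of 54 of which 49 were measured, changed in both directions: 11 were higher, 11 lower and 27 not called. The 22 called genes made up 44.9% of the list, against 33.8% of all genes tested, where each direction took 16.9%. This list too was chosen with earlier results of these data known, so nothing is read from that share. Leaving out brain DC replicate 2 reduced the 11 higher genes to 7. Mlkl, which encodes the protein that breaks the membrane in necroptosis, had the largest difference. It read 0.01 and 0.06 on the brain DC arrays and 2.93, 3.72 and 3.28 on the monocyte arrays, and was 9.71-fold lower (-3.28 ± 0.22, limma adjusted p = 5.78e-05). Its activating kinase gene Ripk3 was not called, as given above. Zbp1, a nucleic acid sensor that can start necroptosis, was higher (1.11 ± 0.23, limma adjusted p = 0.00826), but its 2 probe sets were at 0.25 and 1.96, it fell short of the threshold once brain DC replicate 2 was left out (0.95, limma adjusted p = 0.0512), and its probe set without a suffix alone gave 0.25 (limma adjusted p = 0.507).

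The other lower genes with the largest differences were Sesn1, a stress-induced regulator of growth signalling (-1.67 ± 0.12), Trp53inp1, a p53 cofactor (-1.29 ± 0.24), and the inhibitor and inflammasome sensor genes Naip5 (-1.31 ± 0.15) and Naip2 (-1.27 ± 0.15). Naip genes are close copies of each other, so these values may share signal. The largest increase was in Tnfaip3, which encodes the NF-kappaB inhibitor A20 that protects from TNF-induced death (2.06 ± 0.12, limma adjusted p = 3.03e-05). It was followed by Bcl2l14, a further BCL2 relative (1.31 ± 0.16), by Tnf, the death receptor ligand (1.14 ± 0.16), by Zbp1 as given above (1.11), and by Bag1, a BCL2-binding co-chaperone (1.04 ± 0.13). The groups did not overlap in any of these genes, against 60.2% of all genes. Picking the largest called changes favours such separation, so it adds no support.

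**Figure D4:**
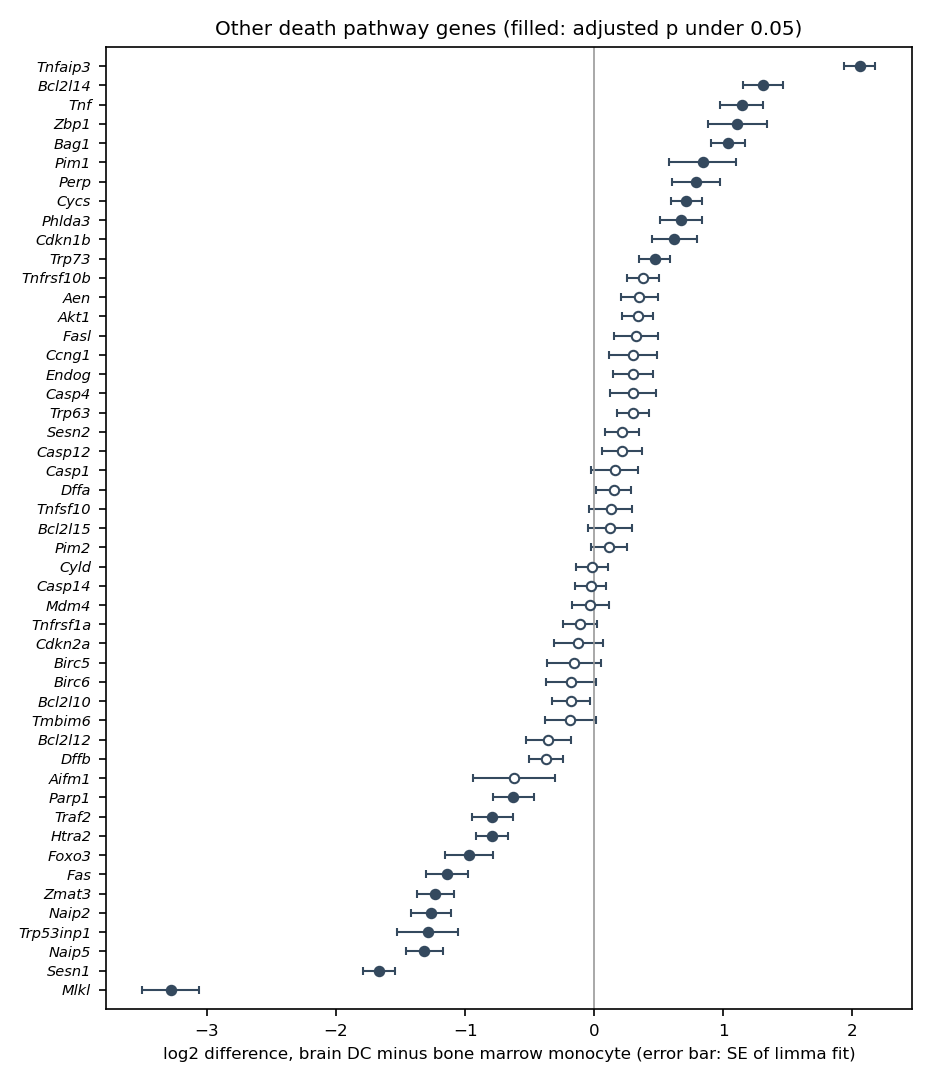
Points are log2 differences, brain DC minus bone marrow monocyte, and error bars are SEs from limma, for the 49 measured genes of the wider death pathway list; filled points passed an adjusted p of 0.05. Mlkl (-3.28) lies far below the other genes and Tnfaip3 (2.06) lies highest.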

How the data were processed

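Total RNA of 2 brain DC and 3 bone marrow monocyte samples was extracted with a Qiagen kit and labelled by the Affymetrix cRNA protocol, per the labels. The submitters' processing notes name RMA for the deposited log2 values. Its version, the centring step and which arrays were normalised as 1 batch are not stated there. The log base and the centring on a probe set baseline are inferred from the values, whose array medians lay between -0.05 and 0.00. Detection above background cannot be read from centred values, so no filter on dim genes was run.

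Of 45101 probe sets, 64 were controls, 34945 carried 1 symbol, 932 several and 9160 none. Gene values are means over probe sets with 1 symbol, for 18193 symbols. Symbols were checked against RefSeq genes of GRCm38.p6 by Entrez identifier: 34741 probe sets matched and 0 symbols changed. Differences were tested with limma 3.58.1 in R 4.3.3 (lmFit, eBayes without trend, no covariate; 3 residual and 4.43 prior degrees of freedom), with Benjamini-Hochberg adjustment over all genes. The fit was tested on simulated data with independent noise and a small share of changed genes, a setting unlike these arrays. That run checks the code and not the calls made here. The number of arrays limits the precision.

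The genes of the set, their roles and the lists were chosen with earlier results of these data known. The text gives the arrays of every called gene with a difference of at least 1, of the largest and smallest difference in each role, and of genes whose probe sets differ in sign with at least 1 past 1; Casp8, Gadd45a and the p53 target group were added after their values were seen. From the wider list the 5 largest called changes each way are named. Alternatives were other probe set rules, probe sets tested singly, array scaling, robust eBayes, a replicate block and leaving out each array.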

Additional observations from a re-analysis of the deposited data

How the results depend on the processing

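Of the 19 called genes of the set, 10 kept their call and direction in all alternatives that could be fitted: Bcl2, Pmaip1, Bcl2l11, Casp2, Casp6, Casp8, Apaf1, Gadd45b, Gadd45g and Cdkn1a. Gadd45g and Bok have no probe set without a suffix, so that alternative gave them no value. Pmaip1, Casp2, Casp8 and Gadd45g were measured by 1 probe set each. The probe set rules could not change their differences, so keeping a call under those rules is no check of these genes. No called gene of the set changed sign. Testing each probe set singly, with most probe sets of a gene required to pass, gave 1946 higher and 2039 lower genes in place of 3068 and 3083; in the set it gave 6 higher genes in place of 10, with 1 anti-death and 2 pro-death genes higher, 1 dual-role gene lower and 7 genes of the wider list higher. The median of the probe sets gave 1 anti-death gene higher and 0 lower in place of 2 and 2. With array medians set equal these became 1 and 4. Counting dual-role genes as pro-death gave 8 higher pro-death genes in place of 4. Leaving out 1 array at a time gave 2236 to 2447 higher and 2371 to 2806 lower genes, and 7 to 8 higher and 5 to 8 lower genes of the set, the 5 being without brain DC replicate 1. By role this gave 1 anti-death gene higher in all 5 fits and 1 to 2 lower, 3 to 4 pro-death genes higher and 4 to 5 lower, 3 dual-role genes higher and 0 to 2 lower, and 7 to 10 higher and 10 to 13 lower genes of the wider list. Signs changed only in genes that were not called: Mcl1 (-0.0212, median of probe sets), Mdm2 (0.19, probe sets without a suffix), Bik (-0.0566) and Ripk3 (0.142), both without brain DC replicate 1 (ranges over left-out arrays -0.0566 to 0.283 and -0.365 to 0.142), Bmf (0.0816 with the median of probe sets, 0.42 without suffixes and 0.0015 for the median probe set difference) and Casp9 (-0.14 without suffixes, -0.0476 with array medians set equal, -0.0041 with quantile normalization, -0.10 with the replicate block, -0.0682 without brain DC replicate 2 and -0.10 without monocyte replicate 3, with a range of -0.10 to 0.103 over left-out arrays). The cause of these changes was not tested.

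Replicate numbers 1 and 2 occur in both groups, and same-numbered arrays deviated together only weakly (r = 0.04 and 0.09 across genes). Deviations of the 2 brain DC arrays from their mean are exact opposites by construction. These values therefore cannot show whether same-numbered arrays were paired. With the replicate block 2513 genes were higher and 3006 lower, and in the set 7 were higher and 8 lower, with 1 anti-death gene higher.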

Other observations

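Genes that textbooks list as p53 targets changed in both directions. The grouping was made after the values were seen, and it supports no test. Of 16 measured, 4 were called higher in brain DCs, 5 lower and 7 were not called, with a median difference of 0.26. That is 56.2% called, against 33.8% of all genes tested (16.9% in each direction, median difference 0.09), and nothing is read from it because the genes were grouped with their values in view. The higher genes were Pmaip1 (4.22), Cdkn1a (2.02), Perp, a membrane protein of cell adhesion and death (0.79), and Phlda3, an inhibitor of AKT (0.67). Leaving out brain DC replicate 2 ended the call of Perp (0.53, limma adjusted p = 0.0660). Leaving out either brain DC array ended that of Phlda3 (0.64 and 0.71, limma adjusted p = 0.0715 and 0.0505). The lower genes were Sesn1 (-1.67), Apaf1 (-1.65), Trp53inp1 (-1.29), Zmat3, an RNA-binding protein of the p53 response (-1.23), and the death receptor gene Fas (-1.14). Zmat3 and Fas were measured by 1 probe set each, so the probe set rules could not change their differences. Each of these 5 lower genes kept its call in every alternative run.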
